A study of Homo sapiens with 6 samples.

Results

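The chromatin of 8 genes of the endoderm lineage was examined in endothelial cells, a cell type of mesodermal origin. The genes were HNF4A, CDX2, PDX1, AFP, ALB, APOA1, TTR and CER1. They were chosen by name for their known roles, but with earlier results of these data known. They make up 8 of 19974 protein-coding genes on chromosomes 1 to 22 and X. Every island, that is a stretch called as enriched for a histone mark, that overlapped a gene's span or the 10 kb on either side was taken from 4 deposited lists. This gave 5 of 8990 (Vc-) and 6 of 9639 (Vc+) islands for H3K27me3, and 10 of 22307 and 9 of 21991 for H3K4me3.

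The cells were GATA2-positive endothelial cells derived from H1, an established human embryonic stem cell line, in a Vc- or a Vc+ condition. Vc is vitamin C by the series title, its dose and timing are not given in the sources used here, and genotype was H1 throughout. Of 6 samples, 3 per condition, the H3K27me3 and H3K4me3 libraries had a list, and the 2 inputs were not analysed here. With 1 library per mark and condition there was no replicate, no test and no error beyond what the lists show, and each difference below is between 2 libraries from a single cell line. For all 4 lists the name of the file and the label of the sample disagree on Vc. Libraries are called by their labels here, and every direction would be the reverse under the file names. Of the defining genes of endothelium, 8 of 8 (PECAM1, CDH5, TEK, TIE1, KDR, ERG, FLI1 and EGFL7) had H3K4me3 in both conditions. As 80.2% and 80.3% of all genes and 8 of 8 housekeeping genes had it too, this does not identify the cell type. H3K27me3 was also called at ERG in both conditions, at FLI1 in Vc- and at CDH5 in Vc+. Read depth is unknown from these lists.

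H3K27me3 is laid down by Polycomb repressive complex 2 and marks genes held silent, often the regulators of other lineages. H3K4me3 is found at active promoters and, together with H3K27me3, at silent promoters that were called poised or bivalent in embryonic stem cells. In endoderm, transcription factors such as HNF4A, PDX1 and CDX2 set up liver, pancreas and intestine, and genes such as ALB, AFP, APOA1 and TTR encode proteins that the liver and yolk sac secrete.

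The 8 genes fell into 4 patterns that were the same in both conditions within this window. CDX2 and PDX1 lay in wide H3K27me3 domains with H3K4me3 islands inside them. CER1 had H3K27me3 and no H3K4me3. APOA1 had a short H3K4me3 island and no H3K27me3. HNF4A, AFP, ALB and TTR had no island of either mark within 10 kb in any list. H3K27me3 was thus called at 3 of the 8 genes in each condition, against 23.8% of all protein-coding genes in the Vc- library and 26.5% in the Vc+ library. H3K4me3 was called at 3 of the 8 in each condition, where 80.2% and 80.3% of all genes had it. No gene of the 8 was called in 1 condition alone. Over all genes such calls were also uncommon, at 2.3% (Vc- alone) and 4.97% (Vc+ alone) for H3K27me3 and 0.901% and 0.946% for H3K4me3, so their absence among 8 genes is near the background. Both marks, with at least 1 bp shared, were found at 2 of the 8 genes in each condition, against 18.8% and 20.9% of all genes, and 20.2% of all genes had each mark in both conditions. Within 1 kb of an annotated start, or of either gene end where no start was in the table, H3K27me3 was called at 3 of the 8 genes (15% and 16.4% of all genes) and H3K4me3 at 3 (71.5% and 71.9%). The 3 with H3K4me3 include APOA1 through its lower-coordinate end, which is not its known start, as described below. A pattern without any island was found at 4 of the 8 genes and at 16.9% of all genes. The windows of the 8 genes were shorter, with a median of 27.7 kb against 44.2 kb over all genes, so these shares are not matched for length.

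**Figure D1:**
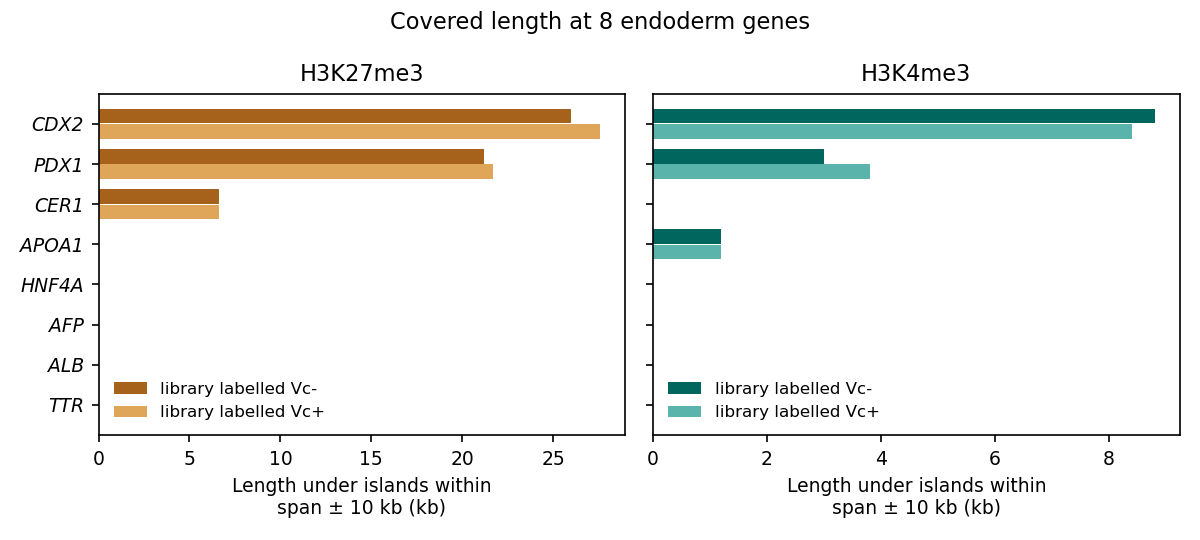
Horizontal bars give the length in kb under H3K27me3 islands (left) and H3K4me3 islands (right) within each gene's span and 10 kb on either side, for the Vc- library (dark) and Vc+ (light), 1 library each with no error bar. CDX2 has the longest bars of the 8 for both marks, and HNF4A, AFP, ALB and TTR have none.

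The sequence before the annotated start was compared between genes of different pattern, because CpG-rich promoters are the usual seat of both marks. RefSeq (GRCh38.p14) promoters were matched for 5 of the 8 genes, with 6 starts. A check of CpG content over the 8 as a set is therefore void, and single promoters are described. Shown are the 250 bases before the start, 5' to 3' in the direction of the gene, for a gene with both marks (CDX2), with H3K27me3 alone (CER1) and without an island (HNF4A at its inner start, and ALB). Capitals mark CpG dinucleotides.
CDX2 (chr13:27969316-27969565, minus strand): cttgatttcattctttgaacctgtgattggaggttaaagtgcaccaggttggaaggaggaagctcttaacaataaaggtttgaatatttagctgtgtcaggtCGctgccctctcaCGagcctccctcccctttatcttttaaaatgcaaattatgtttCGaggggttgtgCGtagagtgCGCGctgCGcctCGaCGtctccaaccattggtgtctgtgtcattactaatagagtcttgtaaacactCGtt
CER1 (chr9:14722734-14722983, minus strand): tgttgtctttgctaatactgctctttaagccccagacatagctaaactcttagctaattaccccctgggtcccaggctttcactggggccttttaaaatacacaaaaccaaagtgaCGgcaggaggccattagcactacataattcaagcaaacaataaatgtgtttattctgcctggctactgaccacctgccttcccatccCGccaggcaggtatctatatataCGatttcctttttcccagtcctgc
HNF4A (chr20:44400989-44401238, plus strand): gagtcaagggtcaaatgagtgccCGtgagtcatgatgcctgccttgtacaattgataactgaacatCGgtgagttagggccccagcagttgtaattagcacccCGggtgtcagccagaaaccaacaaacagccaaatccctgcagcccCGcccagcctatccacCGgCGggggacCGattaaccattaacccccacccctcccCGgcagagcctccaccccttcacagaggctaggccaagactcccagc
ALB (chr4:73404037-73404286, plus strand): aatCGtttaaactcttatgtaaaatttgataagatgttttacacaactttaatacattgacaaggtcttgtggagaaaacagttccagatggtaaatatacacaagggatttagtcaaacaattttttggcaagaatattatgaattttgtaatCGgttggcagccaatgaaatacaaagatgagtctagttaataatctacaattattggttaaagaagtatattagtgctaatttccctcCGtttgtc
CDX2 had 10 CpG dinucleotides and a GC content of 45.2%, CER1 had 3 and 45.2%, and ALB had 3 and 30%. HNF4A had 8 before either of its annotated starts, with a GC content of 58.4% at the outer and 58% at the inner start, and AFP had 1 with 31.6%. All 6 lay below the median of 16 over 22132 starts of protein-coding genes, 36.6% of which had no more than the 10 of CDX2.

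Among the 4056 starts with 0 to 3 CpG, H3K4me3 was called within 1 kb of 12.3% (Vc-) and 12.6% (Vc+), and H3K27me3 within 1 kb of 3.33% and 3.99%. No H3K4me3 was called there at AFP, ALB and CER1, as at most starts of this class, while the H3K27me3 of CER1 was uncommon in it. Among the 1807 starts with 8 to 11 CpG, H3K4me3 was called at 64.5% and 64.9%, and H3K27me3 at 13.9% and 15.2%. CDX2 had both marks there, and HNF4A had neither at either start, as did 30.8% of the class. TATAAA, the core of the TATA box, was searched on both strands and found before the start of AFP and before 9% of all starts. This is a match of letters in a window and not a site shown to be bound.

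CDX2 encodes a caudal-type homeobox factor of the intestine (NCBI gene 1045, GRCh38 chromosome 13, 27960918 to 27969315, read from the higher coordinate). H3K27me3 covered 26 kb of its window of 28.4 kb (91.5%) in the Vc- library and 27.6 kb (97.2%) in the Vc+ library. All of the first length was also covered in the second. In the Vc- library there were 3 islands, of 11.4 kb (27950401 to 27961800), 8.2 kb (27962801 to 27971000) and 12.8 kb (27972401 to 27985200). In the Vc+ library there were 2, of 12.6 kb (27949201 to 27961800) and 21.2 kb (27962601 to 27983800). The annotated start lay inside the second island in each list. The covered stretch thus differed mainly in a gap of 1.4 kb beyond the start, which was present in the Vc- library and bridged in the Vc+ library. A narrower gap inside the gene, of 1 kb and 0.8 kb, was present in both. The smallest gap that either H3K27me3 list holds is 800 bp. The score of an island, taken as −log10 of its false discovery rate within its own list, stood at the list's ceiling of 1000 for the 12.8 kb island in the Vc- list and for the 21.2 kb island in the Vc+ list, a value shared by 1.98% and 1.94% of islands.

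H3K4me3 at CDX2 was broken into 5 islands in each condition, which together covered 8.8 kb (Vc-) and 8.4 kb (Vc+). Within 1 kb of the gene the order turned, with 4.12 kb and 4.80 kb. The island over the start was 3.6 kb wide in the Vc- library (27968001 to 27971600) and 1.6 kb in the Vc+ library (27968001 to 27969600), with the same edge inside the gene. The narrower Vc+ island ranked higher in its list. It scored 66.7, with 51.2% of islands at least as high, against 34.8 and 66.7% for the Vc- island. Another of the 5 islands lay inside the gene (0.6 kb and 1.6 kb) and a further island over its lower-coordinate end (1.2 kb and 1.6 kb). The other two covered annotated starts of neighbours, LINC00543, a long non-coding RNA (2 kb and 1.8 kb), and URAD, which encodes an enzyme of uric acid breakdown (1.4 kb and 1.8 kb). Of the H3K4me3 length, 93.2% (Vc-) and 100% (Vc+) lay under H3K27me3 islands of the same condition. Within a list of islands from many cells, marks on the same chromosome copy and marks on different copies or cells cannot be told apart. Among genes with any island of the mark, 1.28% and 1.29% had at least as much H3K27me3 as CDX2 within their window, and 3.14% and 6.17% had as much H3K4me3.

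PDX1 encodes the homeobox factor of the pancreas and duodenum (gene 3651, chromosome 13, 27920000 to 27926313), and lies next to CDX2 in the ParaHox cluster. In each condition a single H3K27me3 island spanned the gene from end to end, 21.2 kb wide in the Vc- library (27913201 to 27934400) and 21.4 kb in the Vc+ library (27913001 to 27934400). Both scored 1000, and 1.84% and 2.25% of islands in the lists were as wide. The higher-coordinate edge was the same base in both lists and the lower differed by 1 window of 200 bp. The library labelled Vc+ had a further island of 3.4 kb at 9688 bp from the gene, just inside the limit of 10 kb, with a score of 5.92. The nearest further island of the Vc- library lay outside the limit at 15.3 kb and scored 4.97, and in the Vc+ library another of 4.2 kb lay at 11.8 kb on the other side.

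H3K4me3 at PDX1 was made of short pieces, 4 in the Vc- library (0.6, 0.6, 0.8 and 1 kb) and 3 in the Vc+ library (1, 2.2 and 0.6 kb). They summed to 3 kb and 3.8 kb, and 100% of both lengths lay inside the H3K27me3 island. With the lists cut to equal covered length the sums were 3 kb and 2.8 kb, so no direction was read from them. The lower-coordinate end, which is known as the start of PDX1, was covered in both lists from 27919801, up to 27920400 in the Vc- library and up to 27922000 in the Vc+ library. The gap of 0.4 kb after the first of these is the smallest that the H3K4me3 list holds. The piece farthest below the gene covered the annotated start of PLUT, a long non-coding RNA. The PDX1 pieces scored from 9 to 30.2 in the Vc- list, where 69.4% or more of islands scored at least as high, and from 13.4 to 37.9 in the Vc+ list, where 64.6% or more did. All 4 pieces of the Vc- list were narrower than its median island of 1.6 kb, as were 2 of 3 in the Vc+ list (median 1.8 kb), while the H3K27me3 island was among the widest of its mark.

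The stretch from 10 kb below PDX1 to 10 kb above CDX2 is 69.3 kb long. In it, H3K27me3 covered 50.9 kb (73.5%) in the Vc- library and 56.3 kb (81.2%) in the Vc+ library, and 47.7 kb were covered in both. H3K4me3 covered 11.8 kb and 12.2 kb. In the 34.6 kb between the genes, which holds low-scoring islands at differing places beside the ends of the large ones, H3K27me3 covered 21.8 kb and 25.4 kb. The map of the region shows both genes under H3K27me3 in each condition, with islands that are split differently at CDX2 and at differing places between the genes.

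**Figure D2:**
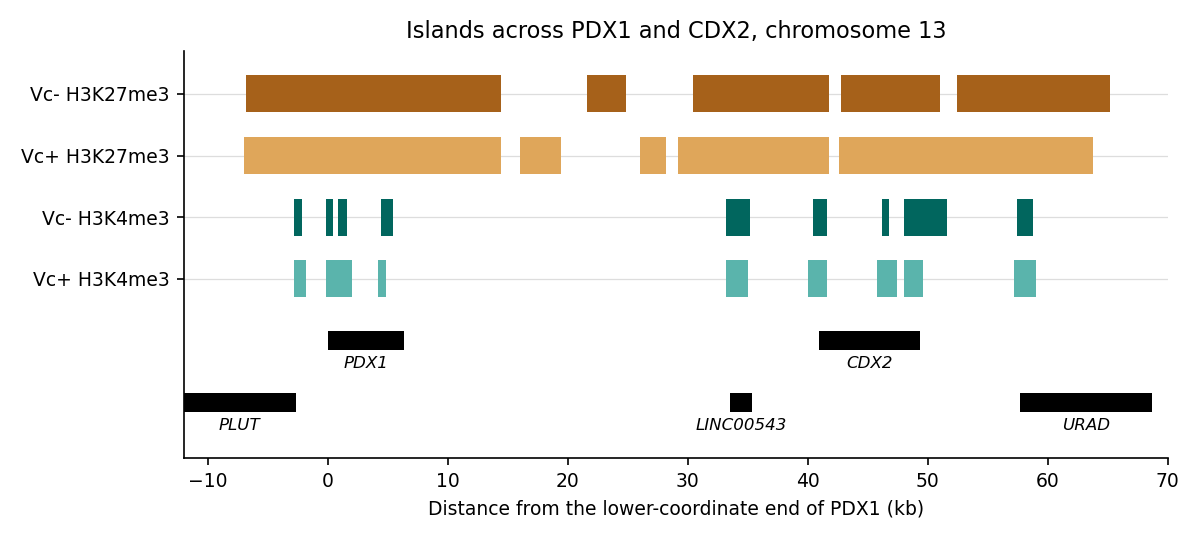
Blocks show islands in the 4 lists and black bars gene spans, against the distance in kb from the lower-coordinate end of PDX1 (PLUT runs on beyond the left edge). H3K27me3 blocks cover PDX1 and CDX2 in both conditions, and the H3K4me3 blocks lie within them or at their edge.

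CER1 encodes Cerberus, a secreted antagonist of NODAL, BMP and WNT signals made by the anterior endoderm (gene 9350, chromosome 9, 14717326 to 14722733, read from the higher coordinate). H3K27me3 covered 6.6 kb of its window in both conditions, 26% of 25.4 kb. The library labelled Vc- held a single island (14719601 to 14726200, score 29.8) that covered the annotated start. The library labelled Vc+ held islands of 4.4 kb (14718201 to 14722600, score 16) and 2.2 kb (14723601 to 14725800, score 10.1), with the start in the gap of 1 kb between them, 133 bp from the nearer. Equal lengths therefore hid a different layout of called islands, and 5.2 kb (78.8% of either) were covered in both. The gap of 1 kb is close to the smallest that either H3K27me3 list holds, 800 bp, so the split rests on a short stretch. No H3K4me3 island lay within 10 kb of CER1, and the nearest was 23.3 kb (Vc-) and 23.1 kb (Vc+) away. This pattern, H3K27me3 in both conditions without H3K4me3 in either, was found at 179 genes, 0.896% of all.

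APOA1 encodes the main protein of high-density lipoprotein, made by liver and intestine (gene 335, chromosome 11, 116835751 to 116837622). It had an H3K4me3 island of 1.2 kb in each condition, at 116835201 to 116836400 in the Vc- library (score 31.3) and 116835401 to 116836600 in the Vc+ library (score 16.1), with 1 kb in common. In their lists 68.8% and 79.9% of islands scored at least as high. The island covered the lower-coordinate end of the gene. As background, APOA1 is known to be read from its higher-coordinate end, from which the island was 1222 bp (Vc-) and 1022 bp (Vc+) away, so this H3K4me3 lay at the far end of the gene and not within 1 kb of its start. The island also covered the lower end of APOA1-AS, an antisense RNA gene, in both lists. Read opposite to APOA1, APOA1-AS would start at this end, but its start was not in the promoter table. The island lay within 10 kb of APOC3, the neighbouring apolipoprotein gene. The nearest H3K27me3 island was 127.2 kb away in the Vc- library and 250.4 kb in the Vc+ library. H3K4me3 in both conditions without H3K27me3 was the pattern of 53.1% of all genes, but 93.2% and 94.6% of genes with H3K4me3 had at least as much of it as APOA1.

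**Figure D3:**
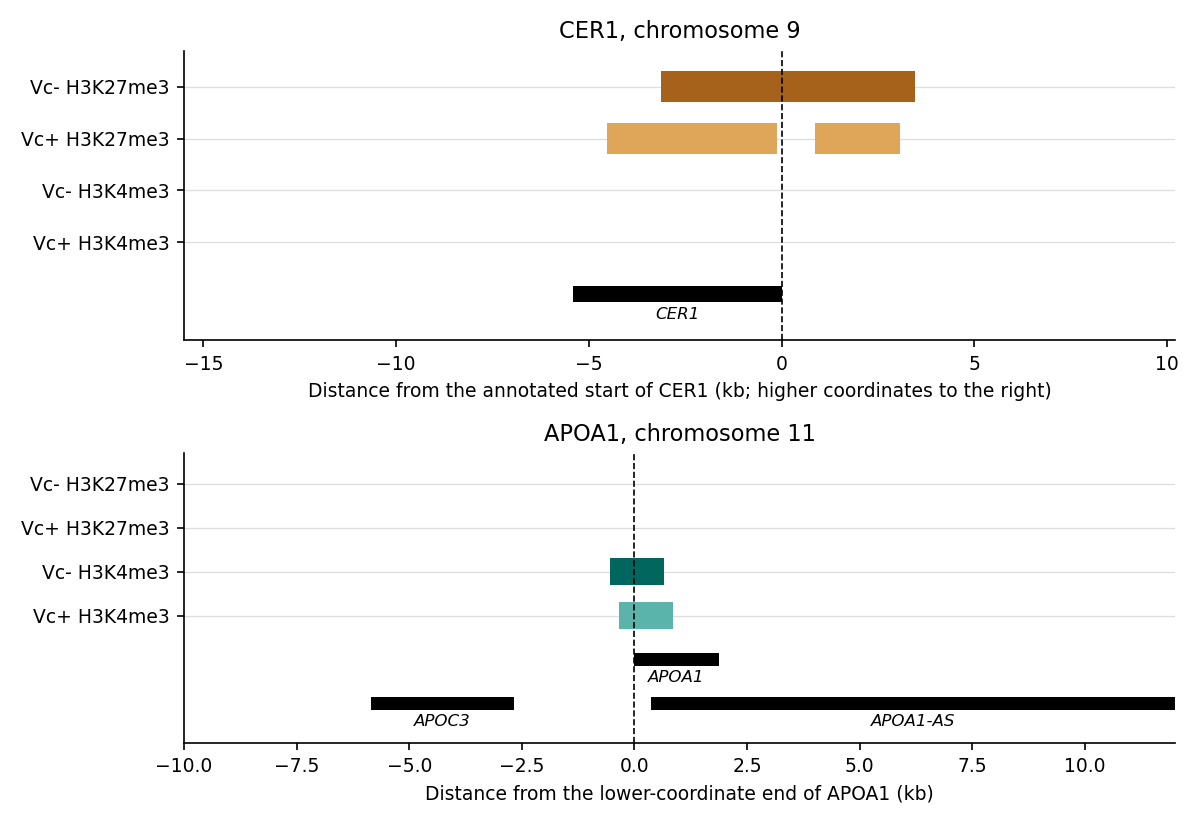
Blocks show islands in the 4 lists within 10 kb of CER1 (top, distance in kb from its annotated start) and of APOA1 (bottom, distance in kb from its lower-coordinate end), with gene spans as black bars (APOA1-AS runs on beyond the right edge). The CER1 start, the dashed line, is inside the Vc- island and between the 2 Vc+ islands, and the APOA1 islands sit on the lower end of the gene.

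HNF4A encodes a nuclear receptor that governs liver, gut and pancreatic genes (gene 3172, chromosome 20, 44355699 to 44434596). It has an outer promoter used in pancreatic beta cells and an inner promoter used in adult liver, and neither had an island within 10 kb. The nearest H3K4me3 island was 28.1 kb (Vc-) and 28.3 kb (Vc+) from the gene, and the nearest H3K27me3 island 310.4 kb and 308.8 kb. Over all genes, 22.5% and 19.4% were farther from H3K27me3, and 14.5% and 14.6% farther from H3K4me3. The island-free stretch of H3K4me3 around it was 147 kb and 148 kb long and held 1 other protein-coding gene, R3HDML. HNF4A thus differed from CDX2 and PDX1, which are transcription factor genes too, in lacking both marks.

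AFP and ALB encode alpha-fetoprotein and albumin, the main serum proteins of fetal and adult life, and are neighbours on chromosome 4 (AFP, gene 174, 73436221 to 73456174; ALB, gene 213, 73404287 to 73421482). The nearest H3K4me3 island was 164 kb from AFP and 143.9 kb from ALB in both conditions. The nearest H3K27me3 island was 330.6 kb (Vc-) and 379.8 kb (Vc+) from AFP and 365.3 kb and 414.5 kb from ALB. They share a stretch of 359.8 kb without H3K4me3 (73260401 to 73620200), with the same edges in both lists, whose 3 protein-coding genes were ALB, AFP and AFM, which encodes afamin. The H3K27me3-free stretch was 2.53 Mb and 2.65 Mb long and held 10 protein-coding genes. Few genes were farther from H3K4me3, 4.11% (Vc-) and 4.1% (Vc+) in the case of AFP and 4.6% and 4.65% in that of ALB.

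TTR encodes transthyretin, a carrier of thyroid hormone and retinol (gene 7276, chromosome 18, 31591877 to 31598821). It was the member farthest from H3K27me3, at 547.1 kb (Vc-) and 545.7 kb (Vc+), and 11.6% and 9.7% of all genes were farther. The nearest H3K4me3 island was 84.4 kb and 83.8 kb away, and TTR was the sole protein-coding gene within the H3K4me3-free stretch of 183.6 kb and 183 kb. An absent island says that no enrichment was called at the authors' threshold, and the depth at which a weaker mark would have been called is unknown. In the plot of distances, AFP, ALB and TTR are far from both marks. HNF4A is about as near to H3K4me3 as CER1, and APOA1, although it had H3K4me3, is also far from H3K27me3.

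**Figure D4:**
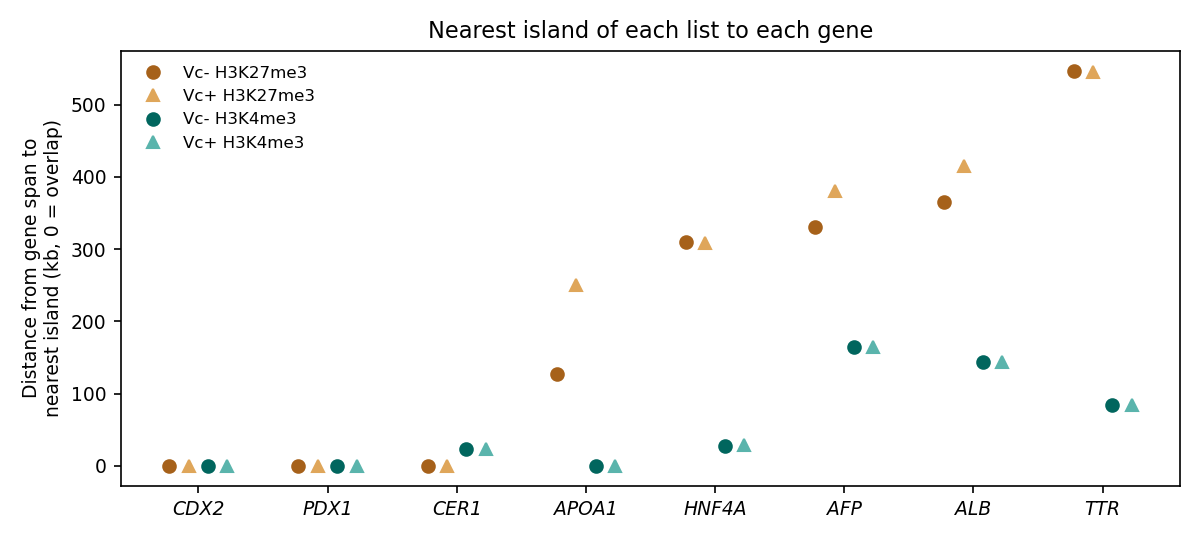
Points give the distance in kb from each gene's span to the nearest island of each of the 4 lists, with 0 for an island that overlaps the gene. H3K27me3 distances of HNF4A, AFP, ALB and TTR lie between 308.8 and 547.1 kb, and the H3K4me3 distances nearly coincide between conditions for all 8 genes.

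Other genes of the lineage and relatives of the 8 genes were read by the same rule in 3 lists, beside housekeeping genes and the endothelial genes. Not every gene in the 3 lists is particular to endoderm. Of 22 endoderm and gut transcription factors, 19 had H3K27me3 in the Vc- library and 18 in the Vc+ library, with a median covered length of 18.1 kb and 18.8 kb against 0 kb over all genes. H3K4me3 was called at 19 and 18. Over all genes the shares were 23.8% and 26.5% for H3K27me3, 80.2% and 80.3% for H3K4me3, and 20.2% for both marks in both conditions. Both marks were called in both conditions at 15, and FOXA1, a pioneer factor of liver and gut, MNX1 and NKX6-1, both factors of pancreatic development, had the most H3K27me3 in the Vc- list (25.7, 25.8 and 24 kb). In the Vc+ list, GATA4 (30.6 kb) and NKX2-2 (26.2 kb), named after their values were seen, had more than these 3. A covered length cannot exceed the gene's window, so this order depends on gene span. H3K27me3 filled the whole window of FOXA1 in both lists and of MNX1 in the Vc- list. GATA4 has a longer span, and its H3K27me3 was not within 1 kb of its start in either list. Calls differed at 3. H3K27me3 was called in Vc- alone at 1 of the 22, and H3K4me3 in Vc- alone at 2 and in Vc+ alone at 1. Over all genes these calls were found at 2.3%, 0.901% and 0.946%. With counts this small no result about the list was read from them. CDX1, a relative of CDX2, had H3K4me3 in the Vc- library alone (2 kb). CDX4, another relative, had H3K27me3 (1.4 kb, score 11.7) and H3K4me3 (1.6 kb, score 15) in the Vc- library alone, and the nearest Vc+ islands of these marks were 364 kb and 107 kb away. GSX1, the third ParaHox gene, had H3K4me3 in the Vc+ library alone (2.4 kb in 2 islands, the better with a score of 7.55).

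Of 10 signalling genes of early endoderm and relatives of CER1, 7 had H3K27me3 and 10 had H3K4me3 in each condition, and the 7 had both. Over all genes H3K27me3 was called at 23.8% (Vc-) and 26.5% (Vc+), H3K4me3 at 80.2% and 80.3%, and both marks in both conditions at 20.2%. EOMES and GSC, transcription factors of mesendoderm, and NODAL, its inducing signal, had the most H3K27me3 of these 10, at 21.7, 12.4 and 10.8 kb (Vc-) and 20.5, 15.3 and 11.2 kb (Vc+). Within this window CER1 thus differed from all 10 in having no H3K4me3. The contrast depends on the window. By the rule for starts, LEFTY2 had H3K27me3 and no H3K4me3 within 1 kb in both conditions, as CER1. DAND5 too had no H3K4me3 by that rule. With the span ± 1 kb, H3K4me3 was called at 9 of the 10 in each condition. Of 23 secreted or lining products of liver and gut, 15 had no island in any list, as ALB, AFP and TTR. Over all genes the share without an island was 16.9%. H3K27me3 was called at 4 in each condition (TF, RBP4, VTN and HPX) and H3K4me3 at 7. That is 17.4% and 30.4%, both below the shares of all genes given above. By the rule for starts, RBP4 alone of the 4 had H3K27me3 in either condition, and APOA2, APOA5 and APOC3 had no H3K4me3. RBP4, which encodes the retinol-binding protein that travels with transthyretin, had 7.2 kb and 6.6 kb of H3K27me3 and 1.4 kb of H3K4me3. H3K27me3 was called at 1 of 8 housekeeping genes in the Vc- library (PSMB2, an island of score 5.86 at 5.08 kb from the gene) and at 0 in the Vc+ library. The lists were chosen with earlier results of these data known, and no test was made between them.

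**Figure D5:**
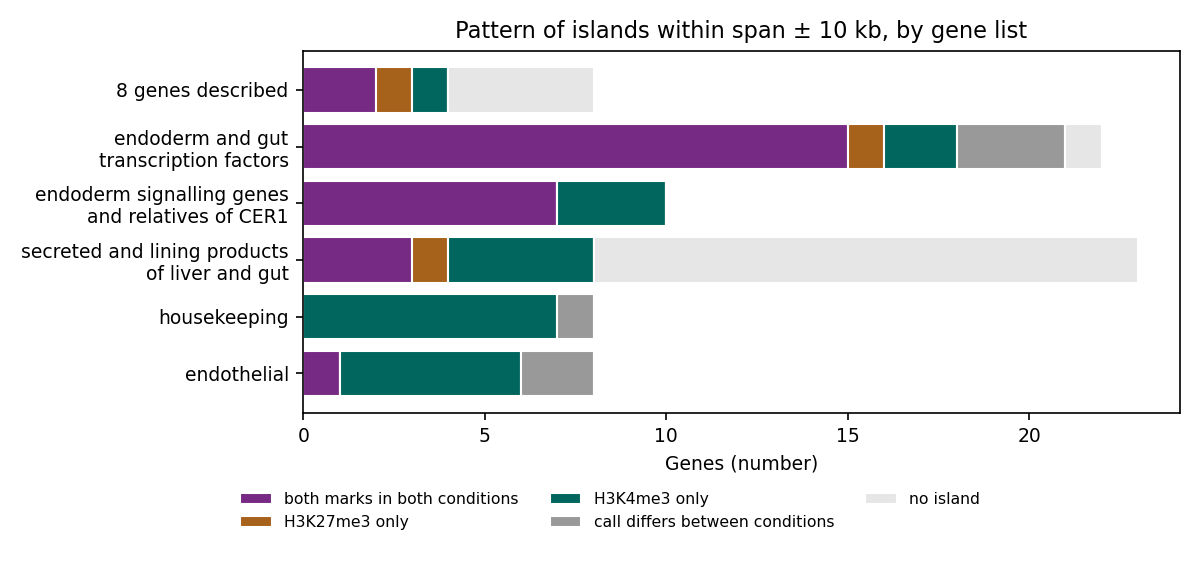
Stacked bars give the number of genes of each list with both marks in both conditions, H3K27me3 in both and no H3K4me3, H3K4me3 in both and no H3K27me3, a call that differs between conditions, or no island. The liver and gut products have the largest block without an island (15 of 23), and the transcription factors the largest with both marks (15 of 22).

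By summed difference in covered length over the 4 lists, the gene of these 3 lists most like PDX1 was PTF1A, another pancreatic factor, at 1.40 kb, followed by NEUROG3 (5.60 kb) and NKX2-1 (6.36 kb). Those most like CDX2 were FOXA1 (6 kb), NKX6-1 (9.75 kb) and MNX1 (11.3 kb). PAX4, a pancreatic factor, was nearest to CER1 (1.2 kb), with 6.4 kb and 7.6 kb of H3K27me3 and no H3K4me3, before RBP4 (3.4 kb) and LEFTY2 (6.4 kb). For APOA1 it was APOC3 (0 kb), whose window holds the same island, before MIXL1 (0.4 kb) and, at the same difference of 0.6 kb, APOB and DAND5. This likeness rests on 4 values per gene and depends in part on gene span, because a covered length cannot exceed the window. H3K27me3 filled the whole window of PTF1A in the Vc- list and of NEUROG3 in the Vc+ list. It also filled those of NKX2-1 and FOXA1 in both lists and of MNX1 in the Vc- list.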

How the data were processed

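Histone marks were measured by ChIP-seq (chromatin immunoprecipitation with sequencing) in GATA2-positive endothelial cells derived from H1, and samples were grouped by title. The series design text speaks of reporter-positive and reporter-negative cells, while every sample label says GATA2-positive, and the protocol names H3K27me3 antibodies alone. The submitters' processing notes name Bowtie2, SICER, deepTools and the builds hg38 and GRCh38, with no version or setting. The authors deposited 1 island list per library. The deposited score was read as a false discovery rate on the −log10 scale, from its values, which start just above 2 and reach 1000. It was used within a list alone.

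Coordinates are counted from 1. Gene spans and starts came from RefSeq GRCh38.p14. Genes were called where an island overlapped the span ± 10 kb by at least 1 bp. Starts of PDX1, APOA1 and TTR were not in the promoter table, so either gene end was used. The 8 genes and all lists were chosen with earlier results of these data known. Genes of other lists were named by differing calls, largest H3K27me3 length in the Vc- list or likeness to a member. Python 3.11.15, numpy 2.4.6 and pandas 2.3.3 were used, overlaps were checked with bedtools 2.31.1, and the code was tested on simulated islands. Alternatives covered score, window, overlap and list length.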

Additional observations from a re-analysis of the deposited data

How the results depend on the processing

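The 8 genes kept their calls under a score of at least 5 or 10, a span ± 1 kb, an overlap of at least 1000 bp and lists of equal covered length. With the span ± 25 kb, CER1 also had H3K4me3 in both conditions, at an island 23.3 kb (Vc-) and 23.1 kb (Vc+) from the gene, which overlapped H3K27me3 in Vc+ alone. Genes with both marks overlapping were then 2 in Vc- and 3 in Vc+, so the patterns no longer matched between conditions. Counts at annotated starts stayed at 3 of 8 with 500 bp and 2 kb around the start, but include APOA1 through its far end. Of the other lists, the liver and gut products moved most. H3K27me3 was called at 2 of 23 in each library with the span ± 1 kb, and H3K4me3 at 16 of 23 with the span ± 25 kb, against 4 and 7. Smaller shifts were seen in the others. A score of at least 10 removed the H3K4me3 call of GSX1 in Vc+. H3K4me3 was then called in Vc+ at 17 transcription factors against 18, and also at 17 with lists of equal covered length. Covered lengths followed the window, for CDX2 H3K27me3 9.40 kb (Vc-) and 9.60 kb (Vc+) with the span ± 1 kb. The order of the conditions turned for H3K4me3 at PDX1 with lists of equal length (3 kb and 2.8 kb) and at CDX2 with the span ± 1 kb (4.12 kb and 4.80 kb). The equal 6.6 kb of H3K27me3 at CER1 became 4.13 kb and 4.53 kb within 1 kb, and 6.6 kb and 11.2 kb within 25 kb. No paired analysis was possible because each mark and condition had 1 library. Depth limits these results, since an uncalled mark may lie below the authors' threshold.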

Other observations

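GSX1, PDX1 and CDX2 form the ParaHox cluster, and the stretch from 10 kb below GSX1 to 10 kb above CDX2 was read as a whole after the values at the genes had been seen. Over these 197 kb, the Vc- library had 10 H3K27me3 islands with a length of 83.5 kb and the Vc+ library 12 with 109.7 kb, and 79.5 kb were common to both. The ratio of 1.31 is near that of the whole lists (1.27). From PDX1 to CDX2 the added length was small (50.9 kb and 56.3 kb), in a stretch already 73.5% covered in the Vc- library. Most of the added length therefore lay on the GSX1 side of PDX1, more than 10 kb from both endoderm genes. H3K4me3 covered 11.8 kb and 15 kb, a ratio of 1.27 against 1.11 for the whole lists. Both marks together covered 11.2 kb and 14.6 kb. The H3K4me3 length of the Vc+ library includes 2.4 kb at GSX1, where the best island scored 7.55. Each value is from 1 library, and no replicate gives its error.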
